A study of Mus musculus with 2 samples.

Results

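The genes described here are 7 noncoding host genes of small nucleolar RNAs (snoRNAs), Gas5, Snhg1, Snhg3, Snhg5, Snhg6, Snhg8 and Snhg12, set beside Rn45s, the row for the precursor of ribosomal RNA. They were taken by symbol, which gave 8 rows of the 23282 in the deposited count tables, each symbol once. The rule for them uses gene names and no measured value, but they were proposed with earlier results of these data known. The tables come from 3T3-L1 cells, a mouse embryonic fibroblast line that is turned into fat cells in culture and that the labels call adipocytes. One culture was treated with an siRNA against Pink1, which encodes a kinase of the mitochondrial surface that starts the clearance of damaged mitochondria, and the other with a control siRNA. Each gave 1 library, so every difference below is between 2 libraries, has no replicate check and carries no p-value. How long after transfection and at what day of differentiation RNA was taken is not given in the sources used here.

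A snoRNA host gene is transcribed by RNA polymerase II, and the snoRNAs are cut out of its introns after splicing. Box C/D snoRNAs guide 2′-O-methylation of ribosomal RNA, box H/ACA snoRNAs guide its pseudouridylation, and a few act in cleavage of the precursor. The spliced exons of many hosts carry no long reading frame, begin with a terminal oligopyrimidine (TOP) tract like the messenger RNAs of ribosomal proteins, and are degraded during translation by nonsense-mediated decay. Their level therefore follows both synthesis and decay, and it differs from the level of the stable snoRNAs made from the same transcript. Gas5, named for growth arrest-specific, is known to accumulate when fibroblasts stop growing or when translation is blocked.

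The starts of 6 hosts are shown because the TOP tract is the feature for which these genes are grouped. They are from RefSeq on GRCm38.p6, the assembly behind mm10, and each runs from 50 bases before the annotated start to 50 bases from it onward, with the start itself as the first of the later 50. Capitals mark the longest run of a C followed by at least 4 bases that are each C or T and that begins within 10 bases of the start on the transcribed strand. Snhg6 was matched to no entry. Gas5 had 2 entries, and the one with a run is shown. The other, which starts at 161034601, has neither a run nor the letters TATAA, so the counts below rest on the shown entry for Gas5. A gene counts throughout if any of its entries holds the motif.
Gas5 start, chr1:161035116-161035215, plus strand: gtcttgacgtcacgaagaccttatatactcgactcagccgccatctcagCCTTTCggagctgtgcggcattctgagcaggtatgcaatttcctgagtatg
Snhg1 start, chr19:8723437-8723536, plus strand: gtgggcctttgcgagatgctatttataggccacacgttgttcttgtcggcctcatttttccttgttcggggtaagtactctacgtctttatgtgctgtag
Snhg3 start, chr4:132353637-132353736, minus strand: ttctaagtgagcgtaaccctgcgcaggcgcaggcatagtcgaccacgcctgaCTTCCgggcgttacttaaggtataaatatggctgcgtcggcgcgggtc
Snhg5 start, chr9:88522848-88522947, minus strand: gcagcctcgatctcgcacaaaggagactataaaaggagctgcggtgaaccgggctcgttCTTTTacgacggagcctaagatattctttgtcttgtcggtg
Snhg8 start, chr3:123508287-123508386, minus strand: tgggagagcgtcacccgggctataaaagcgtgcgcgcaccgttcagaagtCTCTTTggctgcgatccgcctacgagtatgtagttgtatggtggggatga
Snhg12 start, chr4:132308628-132308727, plus strand: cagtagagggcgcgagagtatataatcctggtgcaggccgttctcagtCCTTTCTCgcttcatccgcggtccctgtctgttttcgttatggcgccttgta
The annotated start base was itself a C followed by at least 4 bases C or T in 2 of these 6 genes, Gas5 and Snhg8, against 3.11% of the 8854 measured genes in the table. Within 10 bases it was found in 5 of the 6, all but Snhg1, against 37.5% of measured genes. Of 13 ribosomal protein genes that carry snoRNAs, 0 had the run at the annotated start and 6 (46.2%) had it within 10 bases. A second feature was looked for after the sequences had been seen. The letters TATAA on either strand lay in the 50 bases before the start in 5 of the 6 hosts, beginning 30 bases before it in Gas5, Snhg8 and Snhg12, against 3.81% of measured genes. In Gas5 and Snhg1 the letters lie on the opposite strand only, where they read TTATA in the sequences above. In Snhg3 they begin 22 bases after the annotated start, and they do not overlap the marked run in any of the 6. Among the other noncoding hosts the letters were found in 2 of 14, and among the ribosomal protein hosts in 0 of 13.

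The Pink1 siRNA library held 14214768 counts and the control library 13803174. Levels are given as CPM, the counts per 1e6 counts of a library size scaled by the trimmed mean of M values (TMM), and a ratio is Pink1 siRNA over control siRNA with its 95% counting interval. A gene with at least 40 counts in both libraries together was called measured, which held for 11660 rows. The rule of size calls a gene higher or lower if it differs by 2-fold or more and its counting interval leaves out 1. Pink1 itself had 351 counts in the Pink1 siRNA library and 511 in the control library, a ratio of 0.687 (0.598 to 0.788), which goes the way of the labels, although its widened interval, defined with the hosts, was 0.445 to 1.05. Adipocyte markers were present in both libraries, with 7 markers summing to 2711 CPM with Pink1 siRNA and 2520 CPM with control siRNA. The 4 preadipocyte or fibroblast markers summed to 14366 CPM with Pink1 siRNA and 12699 CPM with control siRNA. Dlk1, Col1a1 and Thy1 of these had widened intervals above 1. For Dlk1 and Col1a1 that interval is narrow because the counts are so many. Their log2 ratios, 0.16 and 0.20, lay inside the quartiles of the 583 measured genes of highest level, -0.08 and 0.21. Thy1 had the highest ratio of the 4, 1.47 (widened 1.05 to 2.06). Of the 7 adipocyte markers 0 had a widened interval that left out 1, and Plin1 had the lowest ratio, 0.607 (widened 0.343 to 1.05). Of the 3 macrophage markers Adgre1 was at 0 in both libraries, and so was Cdh5 of the 2 endothelial markers. The macrophage list summed to 1.64 CPM with Pink1 siRNA and 1.78 CPM with control siRNA. Preadipocyte transcripts such as Dlk1 were thus high beside the adipocyte ones in both libraries, and their part in the results was not tested. In bulk RNA such as this, fewer cells of a type and less RNA per cell cannot be told apart.

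All 7 hosts had a ratio above 1, and Gas5 stood well above the other 6. By the rule of size 0 of the 7 were higher and 0 lower, against 1.63% and 2.39% of measured genes. A ratio above 1 was found for 51.1% of measured genes and one below 1 for 48.9%, and the 7 hosts were above 1 under each of the 5 other library scalings tried. These scalings shift all genes nearly alike, by -0.058 at most on the log2 scale, and so are not independent checks. The median log2 ratio of the 7 hosts was 0.20, against 0.00 for all 11660 measured genes. The counting interval lay above 1 for 5 of the 7, Gas5, Snhg1, Snhg5, Snhg6 and Snhg8, against 26.2% of measured genes. That interval covers the sampling of reads alone, and the 2 libraries differed by more than sampling at every level of expression. An interval widened for this spread, taken from the 583 genes of most similar level, lay above 1 for Gas5 alone among the 7, against 2.09% of measured genes. Since the hosts were proposed with results known, their shared direction is not independent support for a group difference.

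**Figure D1:**
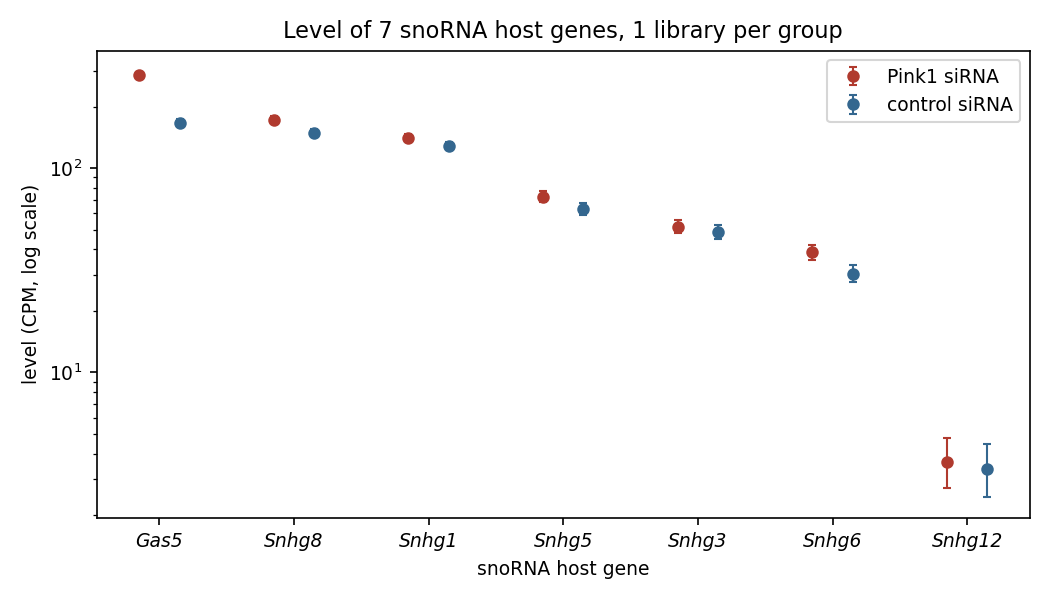
Level of each host gene in CPM on a log axis, with red points for the Pink1 siRNA library and blue points for the control library, 1 library each. Bars are 95% Poisson counting intervals of the single count. The red point is higher for every gene, and the gap is widest for Gas5, at 286 and 166 CPM.

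Gas5 carries box C/D snoRNAs in its introns, and its spliced RNA is a classic substrate of nonsense-mediated decay that can also bind the glucocorticoid receptor. It lies on the plus strand of chromosome 1 from 161034422 to 161038539 (GENCODE M21, GRCm38), where 25 transcripts are annotated. It had 4009 counts in the Pink1 siRNA library and 2332 in the control library, or 286 and 166 CPM. The ratio was 1.72 (1.63 to 1.81), a log2 ratio of 0.78, and the widened interval was 1.28 to 2.33. The genes of similar level were 583 measured genes, 1 of 20 bins of equal size by mean level. Of these 3, Gas5 included, had a ratio as high, and the quartiles of the bin were -0.10 and 0.17 on the log2 scale. Over all measured genes, 367 had a ratio as high as that of Gas5, and 364 of these had a lower mean level. With a ratio of 1.5 in place of 2 in the rule of size, Gas5 was the 1 host called higher, beside 5.43% of measured genes, and 0 were lower, beside 6.64%.

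**Figure D2:**
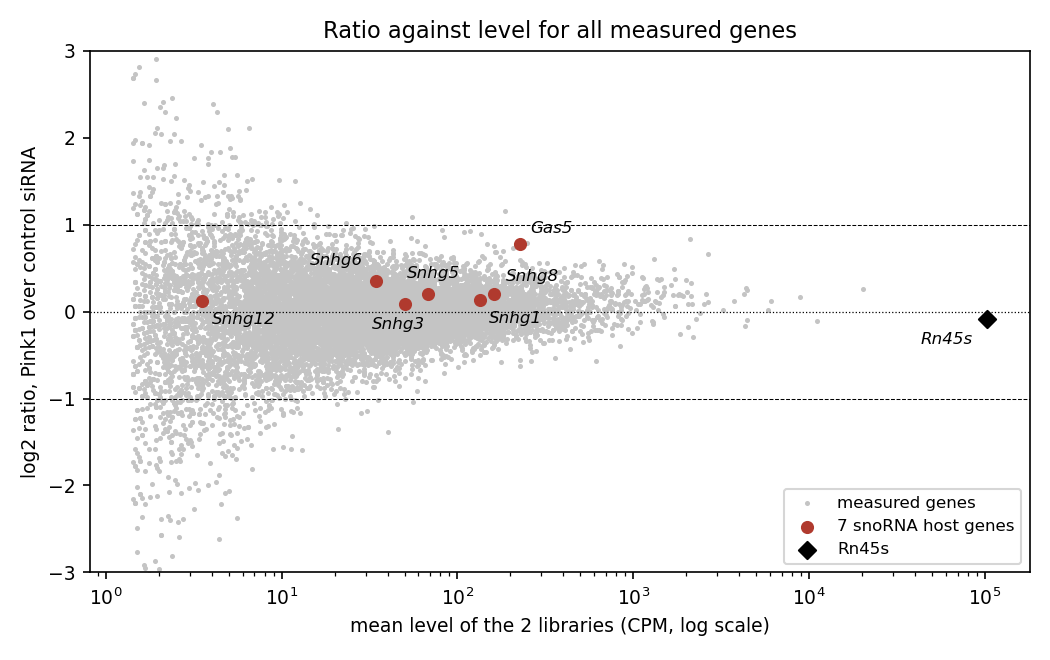
Log2 ratio of Pink1 siRNA over control siRNA (vertical axis) against the mean level of the 2 libraries in CPM (horizontal log axis) for measured genes (grey), the 7 hosts (red) and Rn45s (black diamond). Dashed lines mark ratios of 2 either way, and 10 genes lie outside the vertical range. Gas5 sits at the upper edge of the genes of its level, and the other 6 hosts lie inside the cloud.

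Reads for Gas5 could in part belong to a neighbour, because it is not known whether strand was used in counting. In GENCODE it overlaps Zbtb37, on the opposite strand, by 428 bases at its 5′ side. Zbtb37 had 23 counts with Pink1 siRNA and 41 with control siRNA, few beside those of Gas5. These libraries sequence tags next to the poly(A) tail, so the counts of a host report its last exon, and 3′ ends of the hosts with the most counts are shown for that reason. They are the last 60 bases of the longest GENCODE M21 transcript that stops at the end site used by the largest number of its annotated transcripts. Where several sites tie, as in Snhg8, the outermost is taken. Capitals mark the poly(A) signal, searched as AATAAA or ATTAAA on the transcribed strand.
Gas5 3′ end, chromosome 1, plus strand, last base 161038539: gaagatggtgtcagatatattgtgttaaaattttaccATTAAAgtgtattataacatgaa
Snhg1 3′ end, chromosome 19, plus strand, last base 8726443: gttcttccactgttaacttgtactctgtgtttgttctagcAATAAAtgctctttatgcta
Snhg8 3′ end, chromosome 3, minus strand, last base 123507552: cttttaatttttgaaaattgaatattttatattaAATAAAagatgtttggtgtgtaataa
A signal was found in all 7 hosts, between 11 and 20 bases before the end. Gas5 and Snhg3 have ATTAAA and the other 5 have AATAAA.

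Snhg8, Snhg1 and Snhg5 had ratios between 1.10 and 1.15. Snhg8, the host of the H/ACA snoRNA Snora24, lies on the minus strand of chromosome 3 from 123507552 to 123508404. It had 2412 counts (172 CPM) with Pink1 siRNA and 2089 (149 CPM) with control siRNA, a ratio of 1.15 (1.09 to 1.22, widened 0.816 to 1.64). Snhg1, the host of Snord22 (U22) and 7 other annotated snoRNAs, lies on the plus strand of chromosome 19 from 8723475 to 8726443. It had 1976 counts (141 CPM) with Pink1 siRNA and 1803 (129 CPM) with control siRNA, a ratio of 1.10 (1.03 to 1.17, widened 0.812 to 1.48). Snhg5, the host of the box C/D snoRNAs Snord50a and Snord50b, lies on the minus strand of chromosome 9 from 88521050 to 88522929. It had 1015 counts (72.5 CPM) with Pink1 siRNA and 884 (63.1 CPM) with control siRNA, a ratio of 1.15 (1.05 to 1.26, widened 0.816 to 1.62). For each of these 3 genes the widened interval held 1, and between 18.2% and 33.1% of genes of the same level had a ratio as high.

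Snhg6 had the second highest ratio among the 7. It carries the box C/D snoRNA Snord87 and lies on the minus strand of chromosome 1 from 9941959 to 9944118. It had 543 counts (38.8 CPM) with Pink1 siRNA and 426 (30.4 CPM) with control siRNA, a ratio of 1.27 (1.12 to 1.45, widened 0.846 to 1.93). Of the 583 genes of its level, 60 had a ratio as high, and the widened interval held 1. It overlaps Mcmdc2 on the opposite strand by 127 bases, and that gene had 0 counts in both libraries.

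Snhg3 and Snhg12, neighbours on chromosome 4, were the 2 hosts whose counting intervals held 1. Snhg3 carries Snora73a and Snora73b (U17), H/ACA snoRNAs known to act in cleavage of the 18S part of the precursor, and lies on the minus strand from 132348014 to 132353686. It had 724 counts (51.7 CPM) with Pink1 siRNA and 681 (48.6 CPM) with control siRNA, a ratio of 1.06 (0.956 to 1.18, widened 0.747 to 1.52). It shares 5592 bases and its strand with Rcc1, the nucleotide exchange factor of the Ran GTPase, so strand cannot separate the 2. Rcc1 had 561 counts with Pink1 siRNA and 641 with control siRNA, a ratio of 0.875. Snhg12 lies on the plus strand from 132308623 to 132311024 and carries 4 snoRNAs. It had 51 counts (3.64 CPM) with Pink1 siRNA and 47 (3.36 CPM) with control siRNA, a ratio of 1.09 (0.716 to 1.65, widened 0.378 to 3.15). Ratios inside that counting interval cannot be told apart at this depth.

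The order of the 7 hosts by CPM was Gas5, Snhg8, Snhg1, Snhg5, Snhg3, Snhg6 and Snhg12 in both libraries, and the 95% Poisson intervals of neighbours in this order did not overlap in either, which covers counting error only. CPM here is a tag count that is not divided by length. Tags mark transcript ends and do not scale with length, so values per kb of the longest annotated transcript are given as a description and order nothing. They were 222 with Pink1 siRNA and 192 with control siRNA for Snhg8, and 112 with Pink1 siRNA and 65.1 with control siRNA for Gas5, whose longest form of 2556 bases keeps introns. For Snhg12 they were 2.37 with Pink1 siRNA and 2.18 with control siRNA.

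Taken as a sum, the 7 hosts held 10730 counts in the Pink1 siRNA library and 8262 in the control library, 0.0755% and 0.0599% of all counts. The summed level was 766 CPM with Pink1 siRNA and 590 CPM with control siRNA, a ratio of 1.30 (1.26 to 1.34). Gas5 made up 67.9% of the 176 CPM difference. It was 37.4% of host counts with Pink1 siRNA and 28.2% with control siRNA. Without Gas5 the sum of the other 6 was 480 CPM with Pink1 siRNA and 423 CPM with control siRNA, a ratio of 1.13 (1.09 to 1.17). Set against those 6, the ratio of Gas5 was 1.52 times higher (1.43 to 1.61, counting error only).

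Rn45s was slightly lower in the Pink1 siRNA library. This row stands for the 47S precursor that RNA polymerase I makes and that is cut into the mature ribosomal RNAs. It was matched to no entry of either annotation. Since the mature RNAs are parts of the precursor, reads on this row may come from either, and which of them was not tested. Ribosomal RNA carries no long poly(A) tail, so what fraction of it a poly(A)-primed library takes up is not known here. The row held 1397508 counts with Pink1 siRNA and 1486879 with control siRNA, 9.83% and 10.8% of all counts. Its ratio was 0.940 (0.938 to 0.942), a log2 ratio of -0.09. The widened interval of 0.916 to 0.965 also lay below 1, beside 2.01% of measured genes. That interval is narrow because the counts are so many, and 452 of the 583 genes in the highest bin had a ratio at least as high. The quartiles of that bin were -0.08 and 0.21 on the log2 scale.

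The hosts and Rn45s thus lay on opposite sides of 1, and their quotient does not depend on library scaling. There were 7.68 host counts for every 1000 Rn45s counts with Pink1 siRNA and 5.56 with control siRNA. The ratio of these was 1.38 (1.34 to 1.42), or 0.47 on the log2 scale. For Gas5 alone it was 1.83 (1.74 to 1.92) and for the other 6 hosts together 1.21 (1.16 to 1.25). These intervals (Woolf, on the log scale) again cover counting error only.

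**Figure D3:**
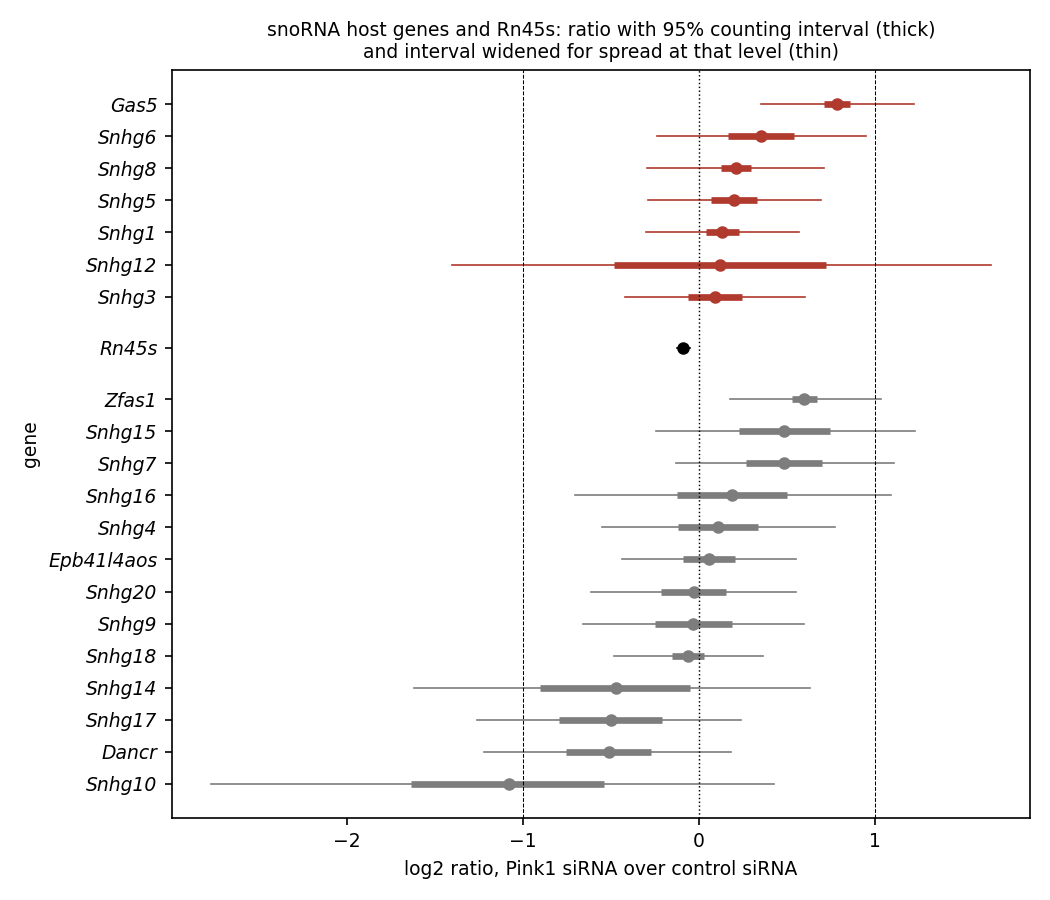
Log2 ratio of Pink1 siRNA over control siRNA for the 7 hosts (red), Rn45s (black) and the 13 other measured noncoding hosts (grey). Thick bars are 95% counting intervals and thin bars the intervals widened for the spread between the libraries at that level, and dashed lines mark a ratio of 2 either way. Thin bars above 0 belong to Gas5 and Zfas1, and the other noncoding hosts spread to both sides of 0.

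Other noncoding snoRNA hosts did not share one direction. Of 17 further symbols, 16 were found, 4 of them through RefSeq synonyms, and 13 were measured. Of these 6 had a ratio above 1 and 7 below, with a median log2 ratio of -0.03. Zfas1, the host of Snord12 family snoRNAs, had 3823 counts with Pink1 siRNA and 2525 with control siRNA, a ratio of 1.51 (1.44 to 1.59, widened 1.13 to 2.04). It and Gas5 were the most abundant of the 20 measured noncoding hosts of the lists and the only 2 with a widened interval above 1. Snhg15 (1.40) and Snhg7 (1.40) followed, both with widened intervals that held 1. On the other side, Snhg10 had 43 counts with Pink1 siRNA and 91 with control siRNA, a ratio of 0.473 (0.321 to 0.686), and was lower by the rule of size. Dancr (0.700), Snhg17 (0.706) and Snhg14 (0.719) also had counting intervals below 1, and the widened intervals of these 4 held 1. Summed over 16 rows, the other hosts had a ratio of 1.15 (1.12 to 1.19), but without Zfas1 the ratio of the other 15 was 0.982 (0.946 to 1.02).

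Protein-coding genes that carry snoRNAs in their introns are another source of snoRNAs. Of 21 ribosomal protein hosts, all measured, 21 had a ratio above 1, or between 19 and 21 by library scaling, with a median log2 ratio of 0.28. By the rule of size 0 were higher, and 5 had a widened interval above 1, against 2.09% of measured genes. Many of these hosts are abundant, and the 583 measured genes of highest level themselves had a median log2 ratio of 0.09 and an upper quartile of 0.21. The highest were Rpl4 at 1.58, Rpl17 at 1.54, Rpl12 at 1.48 and Rps12 at 1.45. Ribosomal protein genes have many processed copies, so single counts are uncertain, and ribosomal protein genes were known as a group from earlier results of these data, so the count is not independent evidence. Of 19 other coding hosts, 15 had a ratio above 1 with a median log2 ratio of 0.05, but 10 with total counts as library sizes and 9 with total counts that left out Rn45s. None had a widened interval that left out 1. The farthest from 1 were the box C/D core protein gene Nop58 (1.35), the chaperone gene Hspa8 (1.23), the ribosome-bound scaffold gene Rack1 (1.22) and the chaperonin subunit gene Tcp1 (0.848). In the promoter table, the 275 measured genes with the pyrimidine run at the annotated start had a median log2 ratio of 0.01, and the 8579 without one had 0.01. With the run within 10 bases, 3322 genes had a median of 0.02 and 53.4% of them a ratio above 1, against 0.00 and 50.4% for the 5532 without. The run was found in 0 of 13 ribosomal protein hosts at the annotated start and in 6 within 10 bases. These comparisons therefore cannot show whether TOP genes differ as a group.

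**Figure D4:**
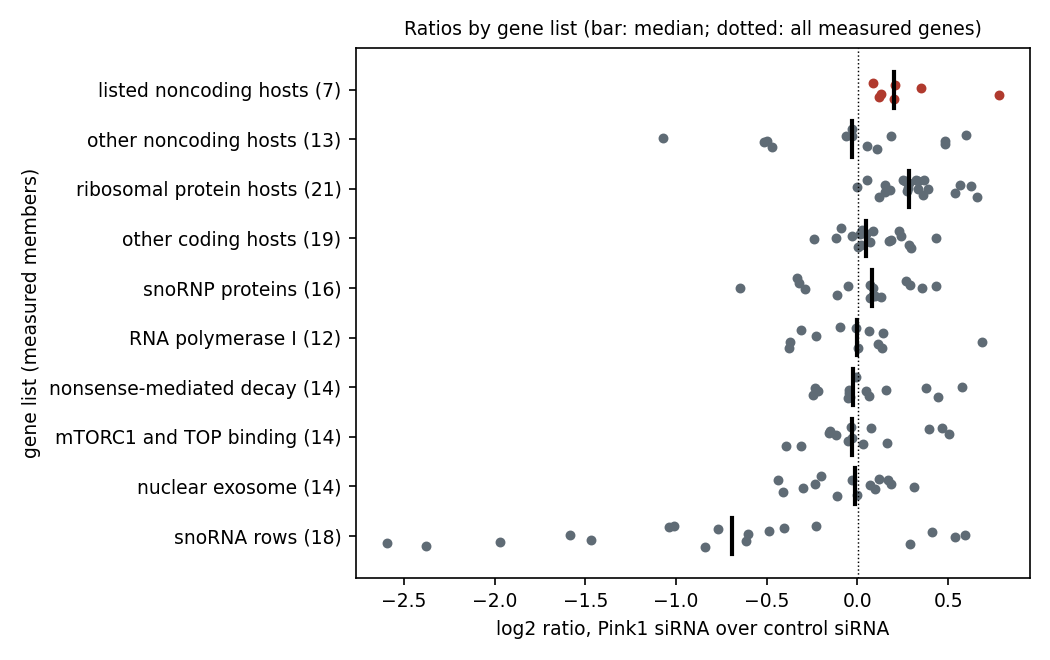
Log2 ratio of Pink1 siRNA over control siRNA for each measured member of each gene list, with the number of members in brackets, a black bar at the list's median and a dotted line at the median of all measured genes. The 7 listed hosts (red) and the 21 ribosomal protein hosts lie at or above 0, and most of the 18 snoRNA rows lie below it.

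Genes whose products make, assemble or degrade these RNAs had medians near 0. For the snoRNP core and assembly proteins, 10 of 16 had a ratio above 1 (median log2 0.08), and Pih1d1, a subunit of the R2TP assembly complex, had the lowest ratio, 0.638. Nop58 had 1.35, Shq1, which chaperones dyskerin, 1.28 and Nufip1, a box C/D assembly factor, 0.795. For RNA polymerase I and its factors, 12 of 15 symbols were found and 6 had a ratio above 1 (median 0.00). Taf1c, a subunit of the promoter selectivity factor, had 121 counts with Pink1 siRNA and 75 with control siRNA (1.61). The polymerase subunit gene Polr1e was at 0.768, the upstream binding factor gene Ubtf at 0.772 and the termination factor gene Ttf1 at 0.804. For nonsense-mediated decay, 6 of 14 had a ratio above 1 (median -0.02), with Smg8 at 1.49, Upf2 at 1.36, Upf3b at 1.30 and the exon junction helicase gene Eif4a3 at 0.845. For mTORC1 and the proteins that bind TOP messages, 6 of 14 had a ratio above 1 (median -0.03). The 4 farthest from 1 were the kinase gene Mtor (1.42), its inhibitor Tsc2 (1.38), its activator Rheb (1.32) and the translation repressor Eif4ebp2 (0.761). For the nuclear exosome, 7 of 14 had a ratio above 1 (median -0.01), with Exosc10 at 1.24, Papd5 at 0.811, Exosc7 at 0.753 and Exosc1 at 0.739. By the rule of size 0 of these genes were higher or lower, and of all 5 lists only Tsc2 had a widened interval above 1 (1.04 to 1.85).

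Genes next to the hosts had ratios on both sides of 1. The nearest measured gene on each side gave 13 distinct genes, of which 8 had a ratio above 1, with a median log2 ratio of 0.02. Slc3a2, an amino acid transporter chain gene that begins 106 bases from Snhg1 on the opposite strand, had 2507 counts with Pink1 siRNA and 2722 with control siRNA (0.921). Trnau1ap lies 739 bases from Snhg12, with 539 counts with Pink1 siRNA and 546 with control siRNA (0.987). Of the neighbours, 0 had a widened interval that left out 1.

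The snoRNAs encoded in the 7 hosts numbered 27 on the same strand in GENCODE M21 (9 in Gas5, 8 in Snhg1, 2 each in Snhg3 and Snhg5, 1 each in Snhg6 and Snhg8, and 4 in Snhg12). The 9 in Gas5 include Mir5117, a gene with a microRNA symbol that this annotation types as a snoRNA. Of the 27, 8 have a row of their own under a snoRNA symbol in the count tables. The sequences of these 8 are shown, since they are the RNAs whose rows are set beside their hosts. They come from the GENCODE M21 transcripts. In box C/D snoRNAs capitals mark TGATGA (box C) in the first part and CTGA (box D) near the end, and in H/ACA snoRNAs ACA near the end, all on the transcribed strand. TGATGA was not found in the searched window in Snord22, nor ACA in that of Snora44.
Snord47 in Gas5, chr1:161038082-161038158, plus strand: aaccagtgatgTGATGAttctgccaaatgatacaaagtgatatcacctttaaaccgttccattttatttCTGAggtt
Snord22 in Snhg1, chr19:8725866-8725991, plus strand: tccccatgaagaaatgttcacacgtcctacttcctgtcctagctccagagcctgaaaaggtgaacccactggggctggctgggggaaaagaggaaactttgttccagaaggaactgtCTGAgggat
Snord87 in Snhg6, chr1:9942463-9942549, minus strand: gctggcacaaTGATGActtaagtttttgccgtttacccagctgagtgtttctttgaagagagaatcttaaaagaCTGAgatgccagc
Snora24 in Snhg8, chr3:123507937-123508066, minus strand: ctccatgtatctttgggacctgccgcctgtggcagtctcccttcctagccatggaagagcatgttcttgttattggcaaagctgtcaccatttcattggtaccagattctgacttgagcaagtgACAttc
Snora16a in Snhg12, chr4:132309464-132309600, plus strand: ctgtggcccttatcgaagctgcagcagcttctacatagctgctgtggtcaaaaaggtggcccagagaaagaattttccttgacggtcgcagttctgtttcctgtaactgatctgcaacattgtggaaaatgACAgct
Snora44 in Snhg12, chr4:132309941-132310069, plus strand: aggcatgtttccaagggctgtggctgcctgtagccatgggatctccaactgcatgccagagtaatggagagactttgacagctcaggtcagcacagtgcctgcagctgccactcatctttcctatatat
Snora61 in Snhg12, chr4:132310240-132310369, plus strand: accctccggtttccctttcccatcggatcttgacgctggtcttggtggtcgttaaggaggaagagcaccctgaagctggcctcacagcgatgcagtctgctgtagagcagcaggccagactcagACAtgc
Snord99 in Snhg12, chr4:132310691-132310764, plus strand: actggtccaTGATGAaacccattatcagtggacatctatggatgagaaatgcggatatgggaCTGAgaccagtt
Each of the 8 lies in an intron of at least 2 annotated transcripts of its host. All but Snord87 also lie in an exon of at least 1 other annotated transcript. For Snora61 these are 4 transcripts, against 5 with it in an intron. Snord22, known from Xenopus to be needed for 18S ribosomal RNA, had 18 counts with Pink1 siRNA and 72 with control siRNA, a ratio of 0.250 (0.140 to 0.424, widened 0.0491 to 0.883), while its host Snhg1 was at 1.10. Snord47 in Gas5 had 2 counts with Pink1 siRNA and 9 with control siRNA (ratio 0.222, 0.0234 to 1.07). The 4 rows inside Snhg12 went different ways. Snora16a had 3 counts with Pink1 siRNA and 21 with control siRNA (ratio 0.143, 0.0273 to 0.478), and Snora61 had 0 with Pink1 siRNA and 15 with control siRNA. With 0 counts, a level of as many as 3 counts (0.214 CPM) remains possible. Snora44 had 47 counts with Pink1 siRNA and 31 with control siRNA (1.52, 0.943 to 2.47), and Snord99 had 5 with Pink1 siRNA and 1 with control siRNA. Snord87 in Snhg6 had 11 counts with Pink1 siRNA and 9 with control siRNA, and Snora24 in Snhg8 had 15 with Pink1 siRNA and 8 with control siRNA. Together the 8 rows held 101 counts with Pink1 siRNA and 166 with control siRNA, a ratio of 0.608 (0.470 to 0.784), against 1.30 for the summed hosts. This sum rests on Snord22, since without it the other 7 rows had 83 counts with Pink1 siRNA and 94 with control siRNA, a ratio of 0.883 (0.649 to 1.20). Of the 8 rows, 4 had a ratio above 1 and 4 below.

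Summed over all snoRNA rows of the tables, the level was lower in the Pink1 siRNA library. The 121 rows named Snord, Snora or Scarna held 1588 counts with Pink1 siRNA and 2737 with control siRNA, a ratio of 0.580 (0.545 to 0.617). Rows named Snora held 937 counts with Pink1 siRNA and 1873 with control siRNA (ratio interval 0.462 to 0.541). Rows named Snord were at a ratio of 0.746 (0.666 to 0.835) and rows named Scarna at 0.794 (0.614 to 1.03). Snora81 alone held 514 counts with Pink1 siRNA and 1056 with control siRNA, and without it the ratio was 0.639 (0.591 to 0.690). The rows with the next most counts were Snord89 (177 with Pink1 siRNA, 302 with control siRNA), Snora26 (62 with Pink1 siRNA, 187 with control siRNA) and Snord104 (117 with Pink1 siRNA, 88 with control siRNA). Of the 18 measured rows, 14 had a ratio below 1 and 7 were lower by the rule of size, against 2.39% of measured genes, with 0 higher. The median log2 ratio was -0.69, and 5 had a widened interval below 1, against 2.01% of measured genes. Most of these rows have few counts, and ratios spread more at low level. Among the 583 genes of the level of Snhg12 the quartiles were -0.60 and 0.41 on the log2 scale. The shares over all measured genes are therefore not shares at like level. The lowest ratios were those of Snora41 (0.159), Snora20 (0.184), Snord22 (0.250) and Snora26 (0.332).

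For 15 of the 18 measured rows a carrying gene with its own row was found on the same strand. The snoRNA row had the lower ratio in 12 of these 15 pairs. Snora81 was at 0.487 inside Eif4a2, a translation initiation helicase gene at 1.18. Snora41 was at 0.159 inside Eef1b2, an elongation factor gene at 1.17. Snora26 was at 0.332 inside Dancr at 0.700, so there both were below 1. Mature snoRNAs have no long poly(A) tail, and whether reads on these rows come from snoRNAs, unspliced host transcripts or other priming was not tested.

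**Figure D5:**
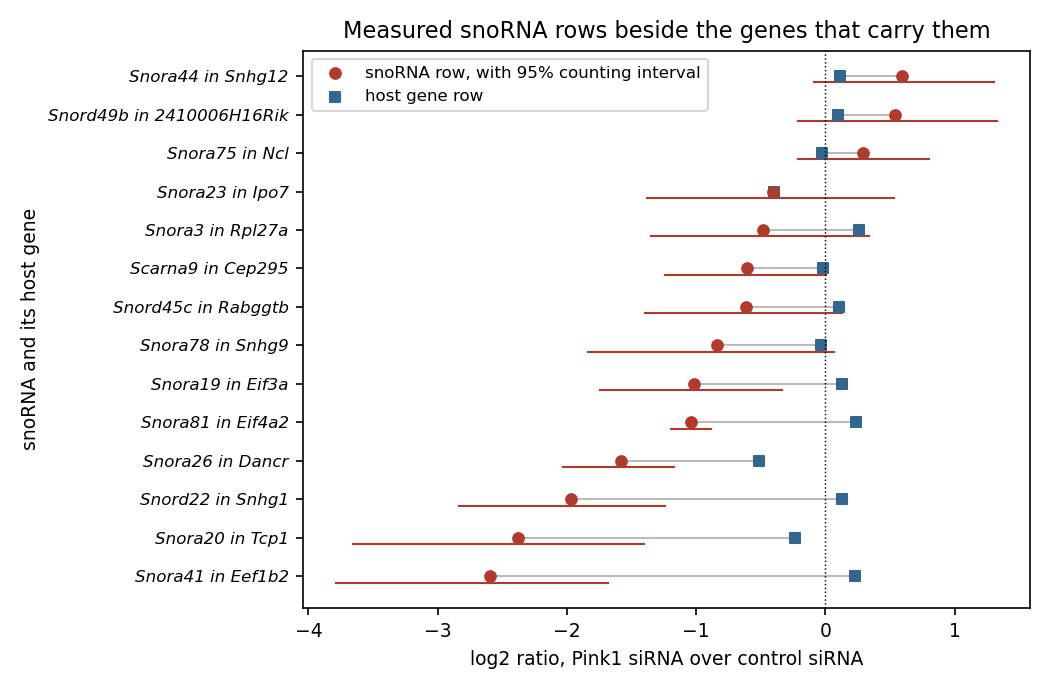
Log2 ratio of Pink1 siRNA over control siRNA for 14 of the 15 measured snoRNA rows with a carrying gene (red circles, red line for the 95% counting interval) and for the gene that carries each (blue squares), joined by grey lines. In 11 of the 14 pairs drawn the circle lies to the left of the square, and the squares lie between -0.51 (Dancr) and 0.26 (Rpl27a).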

How the data were processed

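Counts of 3′ tags were measured in 2 libraries of 3T3-L1 cells, 1 with an siRNA against Pink1 and 1 with a control siRNA. Per the labels' protocols, RNA was taken with Trizol and 500 ng of total RNA went into a Lexogen QuantSeq kit. Per the submitters' processing notes, the tools named are Bowtie2, bedtools and bcl2fastq (2.20.0.422), and the build is mm10. The annotation, the placing of multiply mapped reads and any use of strand are not given in these sources. As deposited, the values are whole-number read counts per gene symbol, not normalized. The depth of 14214768 counts with Pink1 siRNA and 13803174 with control siRNA sets the counting error. No molecular identifiers are mentioned, so intervals and floors cover counting error only.

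Of 23282 rows, 79 shared 35 symbols. None of those is a host or Rn45s. Counts were scaled with TMM from edgeR 4.0.16 (R 4.3.3), and log2 ratios were taken after adding 0.5 to scaled counts. The 95% interval of a ratio is the exact conditional binomial (Clopper-Pearson) interval from SciPy 1.17.1. The widened interval divides both counts by the mean squared difference over binomial variance in 1 of 20 bins of level, which ran from 5.66 in the lowest bin to 128 in the highest. It does not separate technical spread from differences between the cultures. With 1 library per group no test was possible. The rule of size uses the ratio with 0.5 added (190 genes higher). This was settled after the counts of calls had been seen, and with nothing added 197 were higher and 279 lower, with 0 of the members among them. The rule was tested on simulated data that held counting error alone. A few single-gene results are not reported here. RefSeq synonyms gave the rows of 7 list symbols. Named genes are the 8 members, their overlapping and nearest measured genes, and every measured noncoding host of the lists. In each other list up to 4 with the ratio farthest from 1 are named. The 4 snoRNA rows with the most counts were also to be named. The sums over snoRNA rows, the pairs with carrying genes and the values of 2410006H16Rik were added after the data had been seen. So were the snoRNA rows inside the hosts, those with the lowest ratios and the TATAA search. The members, lists and motifs were chosen with earlier results of these data known. Alternatives were other library scalings, with DESeq2 1.42.0 among them, another pseudocount, filters, folds and intervals.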

Additional observations from a re-analysis of the deposited data

How the results depend on the processing

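The log2 ratio of each of the 7 hosts stayed within its counting interval and above 0 in all 42 alternatives of scaling and pseudocount, and Gas5 ranged from 0.72 to 0.78. These are not independent checks, since a scaling shifts all genes nearly alike. The largest shift was -0.058, with total counts that left out Rn45s, against 0.088 for Snhg3, the lowest host. DESeq2 size factors and TMM without Rn45s hardly differed from the main scaling. The median of the hosts stayed above 0 and within the counting interval of Snhg5, the host at that median. This held also with other filters on low counts. With the other noncoding hosts added the median fell from 0.20 to 0.11, which is still inside that wide interval of 0.068 to 0.33. The count of hosts past the rule of size was 0 in either direction under other scalings, filters and intervals and with a ratio of 4, and 1 was higher with a ratio of 1.5. The summed host level had a log2 ratio of 0.33 with total counts and 0.32 with total counts that left out Rn45s. It was 0.18 without Gas5, 0.44 without Snhg1 and 0.43 without Snhg8, so Gas5 alone moves it by more than 1.5 times. Rn45s was at -0.13 with total counts, -0.10 with upper-quartile scaling and -0.15 with total counts that left out Rn45s. All 64 medians of the other lists stayed within a counting interval taken from the member nearest the median. That interval is wide for some lists, -0.62 to 0.56 for mTORC1, so staying within it says little. The median of the other coding hosts changed sign, from 0.05 to -0.0076 with total counts that left out Rn45s. The number of genes above 1 in the other noncoding hosts, RNA polymerase I, decay, mTORC1 and exosome lists moved by at most 1 gene with the scaling. No scaling moved the median of all measured genes by 0.1. No paired analysis was possible because each group holds 1 library, and so no replicate could be left out. Without Snora81, left out after seeing the data, the log2 ratio of the summed snoRNA rows was -0.65, against -0.79 with it. Leaving out Zfas1, also chosen after seeing the data, gave a log2 ratio of -0.026 for the summed other noncoding hosts, against 0.20 with it, and leaving out Snord22 gave -0.18 for the snoRNA rows inside the hosts. Low counts limit Snhg12 and the snoRNA rows inside the hosts.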
